A study of Bos taurus and Bos indicus with 3 samples.

Results

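The leukocyte RNA of Cholistani cattle was compared with that of Holstein cattle, gene model by gene model. A model entered the comparison when it had a value in both libraries and an FPKM of at least 10 in either of them. FPKM is the number of sequenced fragments per kilobase of transcript, scaled between libraries. The authors scaled it by upper-quartile normalization, so the library sums need not be equal. This left 13530 of the 25968 models in the table. The study sequenced messenger RNA of blood leukocytes to compare a tropical indicine breed (Cholistani, Bos indicus) with a pair of taurine breeds of temperate regions (Holstein and Jersey, Bos taurus). Each breed was represented by 1 library. The Holstein library came from the pooled blood of 40 cows of a university dairy herd in Wisconsin, and the Cholistani library from that of 45 cows of a Pakistani farm. The Jersey library, given here only for reference, came from 7 cows of another Wisconsin herd. The labels give no ages and no treatment, and all animals were cows.

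With 1 pooled library per breed, no difference below has a replicate check, and no test, p-value, standard error or interval was computed. Breed, herd, site and the library itself cannot be told apart. Only the Cholistani RNA was shipped in a dry storage matrix, so its transport cannot be told apart from breed either. Ratios are given as the log2 ratio of FPKM + 1, Cholistani over Holstein, which understates the difference of genes with low FPKM. Genes are called higher or lower where FPKM + 1 differed at least 2-fold, and the call describes these libraries only. Where 3 FPKM values follow a gene without further words, they stand in the order Holstein, Jersey, Cholistani.

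White blood cells are a mixture of neutrophils, lymphocytes and monocytes, and preparations of them usually carry some platelets and young red cells. When such cells meet microbes, cytokines or stress, a set of immediate early genes is transcribed quickly by factors that are already present. NF-kappaB, a transcription factor held back by inhibitors, drives many cytokines and chemokines, the secreted proteins that signal to other leukocytes and call them to a tissue. Interferons induce another set of genes, which includes the machinery that cuts proteins into peptides for display on MHC class I.

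The FPKM values of all models summed to 5949765 in Holstein and 9518432 in Cholistani, a ratio of 1.60, or 0.68 on the log2 scale. The Jersey sum was 6288105. The 100 most abundant models held 38.9% of the Holstein sum and 46.7% of the Cholistani sum. Because the sums differed, ratios are also given after both libraries were rescaled to the mean of their 2 sums, which lowers a ratio by up to that shift. All 6 matched genes of general leukocyte identity were above 0 in both libraries. LAPTM5, a lysosomal membrane protein of blood cells, had 12202 FPKM in Holstein and 16504 in Cholistani. CORO1A, an actin regulator of leukocytes, had 7638, 7842 and 16310 FPKM.

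The most abundant named genes of both libraries were mostly those of mitochondrial energy production and of the ribosome. B2M, which pairs with class I heavy chains, had 82480.2 FPKM in Holstein against 116169 in Cholistani (Jersey 81393). COX1, a mitochondrially encoded subunit of cytochrome c oxidase, had 79333, 88848 and 129900 FPKM, and ND3, of mitochondrial complex I, 71009, 71815 and 162084 FPKM. TMSB10, which binds actin, had 42633, 42171 and 89006 FPKM, and UBB, a ubiquitin precursor, 28906, 30734 and 65432 FPKM. Of these 5, ND3, TMSB10 and UBB were past 2-fold as deposited, and 0 were after rescaling.

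Of the 13530 members, 11881 were above 0 in both libraries and have a ratio. Their median log2 ratio was 0.19, with an SD over models of 0.91. As deposited, 1673 models (14.1%) were at least 2-fold higher in Cholistani and 1019 (8.58%) at least 2-fold lower, so that 62.1% of the models past 2-fold were higher. After rescaling the median was -0.48, and 462 models (3.89%) were higher against 3028 (25.5%) lower, so that 13.2% of those past 2-fold were higher. The balance between higher and lower genes thus turned with the scale. At 4-fold, 276 models were higher and 118 lower as deposited, and at 8-fold, 78 and 17. Around the threshold, 268 models had a ratio of FPKM + 1 from 1.9 to 2.0 and 204 a ratio from 2.0 to 2.1.

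Jersey against Holstein, a comparison that shares the Holstein library, gave a median of 0.01 and an SD of 0.45 under the same rule. There 323 of 12153 models (2.66%) were higher and 186 (1.53%) lower.

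**Figure D1:**
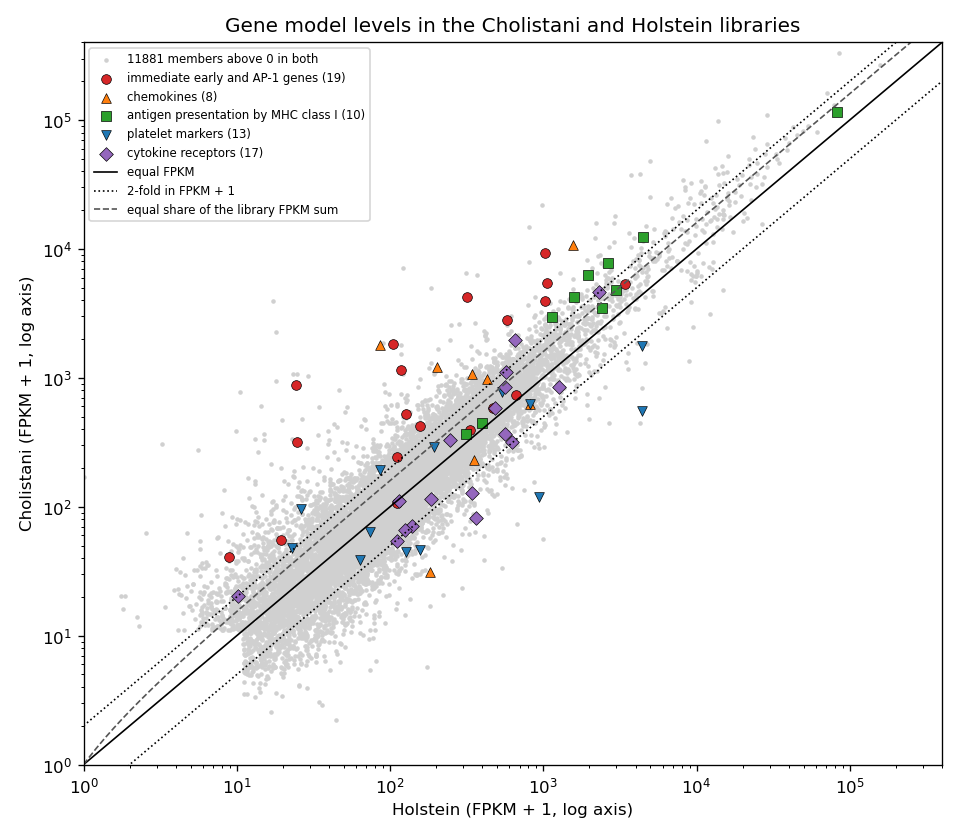
Levels of the 11881 gene models above 0 in both libraries, as FPKM + 1 on log axes, Holstein on the x axis and Cholistani on the y axis. Grey points are models, coloured points genes of 5 lists, the solid line equal FPKM, dotted lines 2-fold, and the dashed line an equal share of the library sum. Most immediate early genes (red) lie above the upper dotted line, while TUBB1 (4430.1 FPKM in Holstein, 551 in Cholistani) and 4 more of the 13 platelet markers (blue) lie below the lower one.

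The study had designed RT-PCR primers for 10 genes, which were matched here to their gene models. Primers for 4 of them are shown because they stand for the main directions below: IL1B and IL8RB (now CXCR2) were far higher in Cholistani, and CLUS (clusterin, CLU) and TAC3 far lower. All are written 5′ to 3′.
IL1B forward: aggaaatgaaccgagaag
IL1B reverse: acacaagacaggtatagatt
IL8RB forward: gaagttctgatttgtagcatttg
IL8RB reverse: aacaccaccatccttgaa
CLUS forward: cacgatggaattcacaga
CLUS reverse: gatctcctggcacttctc
TAC3 forward: tcacagcaagaaggactc
The reverse entry listed for TAC3 is identical to the forward one, the only such pair of the 10, and is not repeated.

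These 10 genes were chosen by the study on these samples, so their directions are no independent evidence. The study measured them by RT-PCR in the same Holstein and Cholistani RNA, with GAPDH as reference. It reported that RT-PCR and sequencing gave like results for all 10. In the deposited FPKM values, 7 of the 10 were higher, 2 lower and 1 neither. IL1B, the fever-inducing cytokine interleukin-1 beta (chr11:48249241-48257632), had 89.3 FPKM in Holstein against 1851 in Cholistani (Jersey 51.4), 20.7-fold the Holstein FPKM. CXCR2, a receptor through which neutrophils follow chemokines (chr2:110616093-110617795), had 33.5 FPKM in Holstein against 598 in Cholistani (Jersey 7.62). DGAT2, which makes triglycerides (chr15:54717390-54749894), had 45.1 FPKM in Holstein against 808 in Cholistani (Jersey 12.1). In each of these 3 the Jersey value was below the Holstein value. NFKBIZ (49.7, 46.2 and 546 FPKM), CCL5 (1562, 876 and 10663 FPKM), JUNB (1024, 1469 and 9367 FPKM) and JUND (1026, 1064 and 3943 FPKM) made up the rest of the higher genes. CLU (chr8:11291515-11308982), a secreted chaperone stored in platelets, had 941 FPKM in Holstein against 118 in Cholistani (Jersey 668). TAC3 (chr5:60921436-60928338), the precursor of the neuropeptide neurokinin B, had 2677 FPKM in Holstein against 442 in Cholistani (Jersey 2953). EEF1A1, an elongation factor of translation, had 10731 FPKM in Holstein against 6129 in Cholistani (Jersey 10536) and did not pass 2-fold as deposited (log2 ratio -0.81), but did after rescaling (-1.49).

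Among the 4120 members with a gene name, 100 FPKM or more in the higher library and a value above 0 in both, the 15 highest ratios ran from 3.43 to 6.98. The highest belonged to GROG, a CXC chemokine that attracts neutrophils (chr6:91927492-91929555), with 2259.5 FPKM in Cholistani against 16.9 in Holstein, and listed at 0 in Jersey. MRPL57, of the mitochondrial ribosome, had 2.25 FPKM in Holstein against 304 in Cholistani (Jersey 13.2). EGR1, a zinc finger transcription factor of the immediate early response, had 23.3 FPKM in Holstein against 885 in Cholistani (Jersey 41.6). Inflammatory and immediate early genes made up most of this group, which also held IL1B, CXCR2, NFKBIZ, CCL4, FOS, ATF3 and DUSP2.

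Several enzymes stood among them. PRSSL1, a serine protease, had 12.1 FPKM in Holstein against 332 in Cholistani (Jersey 13.7). DDN1, a serine protease called duodenase-1, had 18.8 FPKM in Holstein against 467 in Cholistani (Jersey 18.1). SDS, serine dehydratase, which turns serine into pyruvate, was the most abundant of the 15, with 809.7 FPKM in Holstein against 14764 in Cholistani (Jersey 171). In all 15 genes the Cholistani value was above both taurine values.

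The 15 lowest ratios ran from -4.01 to -2.39. ALAS2, which starts heme synthesis in young red cells (chrX:60276583-60303743), had 536 FPKM in Holstein against 32.3 in Cholistani (Jersey 363), 16.6-fold lower than in Holstein. DIRAS2, a small GTPase of the Ras family, had 220.2, 220.4 and 19.8 FPKM. TUBB1, the beta tubulin of platelets, had 4430.1, 2997 and 551 FPKM. GNG11, a G protein subunit, had 4440.2, 4393 and 829 FPKM. In all 15 genes the Cholistani value was below both taurine values.

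The rest of these genes did not share a single function. COX4I1, a subunit of cytochrome c oxidase, was the most abundant of them, with 8929.7 FPKM in Holstein against 1338 in Cholistani (Jersey 9459.9). CXCL10, an interferon-induced chemokine, had 182 FPKM in Holstein against 30.0 in Cholistani (Jersey 128). PPP1R1B, a phosphatase inhibitor, had 357, 803 and 62.5 FPKM, with its highest value in Jersey. SRXN1, which repairs oxidized peroxiredoxins, had 744, 419 and 133 FPKM. WLS, needed for the secretion of Wnt proteins, had 253, 142 and 36.8 FPKM, and SLC24A3, an ion exchanger, 108, 56.4 and 15.0 FPKM. RNBR, a ribonuclease, had 328, 168 and 60.1 FPKM, C19orf71 411 FPKM in Holstein and 58.7 in Cholistani, and HBBF, a fetal beta globin, 156, 116 and 28.8 FPKM.

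Some of these 30 genes have a listed span that other models share, so that reads may have been divided among them. PRSSL1 shares its span with 35 other models, C19orf71 with 5, CCL4 with 4, COX4I1 and CXCL10 with 2 each, and MRPL57 and TUBB1 with 1 each. The model that shares the TUBB1 span, a merged one of ATP5E, a subunit of ATP synthase, and a microRNA, was lower as well (4305, 3729.8 and 446 FPKM).

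**Figure D2:**
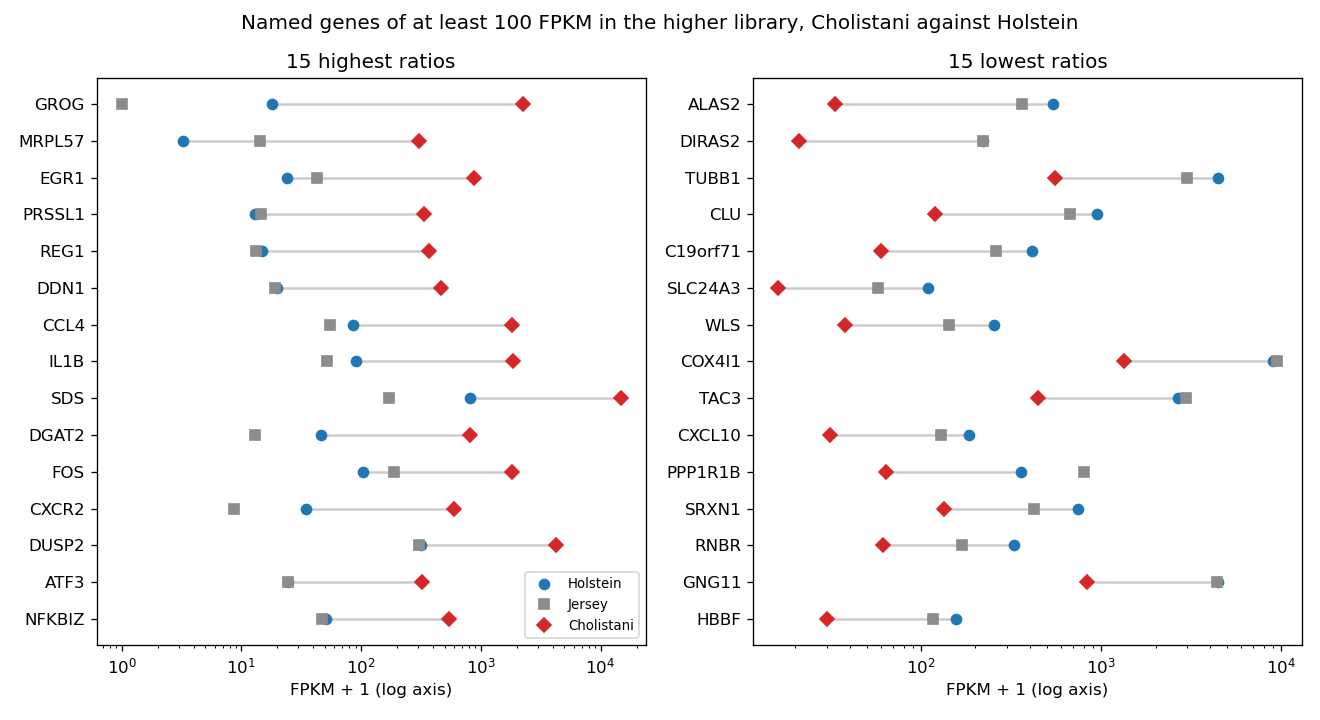
FPKM + 1 on a log axis for the 15 named genes with the highest and the 15 with the lowest ratio of Cholistani to Holstein. Blue circles are Holstein, grey squares Jersey and red diamonds Cholistani, 1 library each, and the grey line joins Holstein and Cholistani. SDS reached 14764 FPKM in Cholistani, and ALAS2 was at 32.3 there against 536 in Holstein.

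The counts of each list below stand beside shares over all 11881 models with a ratio. These were 14.1% higher and 8.58% lower as deposited, and 3.89% and 25.5% after rescaling. Immediate early genes and AP-1 factors had the highest median of all lists but the RT-PCR genes, 2.05 as deposited against 0.19 for all members, and 1.37 after rescaling. Of the 19 genes above 0 in both libraries, 14 were higher and 0 lower, and 11 stayed higher after rescaling. FOS, a partner in the AP-1 dimer, had 103 FPKM in Holstein against 1820.3 in Cholistani (Jersey 189). JUNB, another AP-1 factor, had 1024 FPKM in Holstein against 9367 in Cholistani (Jersey 1469), and JUND 1026 FPKM in Holstein against 3943 in Cholistani (Jersey 1064). These AP-1 genes were several-fold higher in Cholistani than in either taurine library.

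The phosphatases that shut off MAP kinases differed within their family. DUSP2 had 315 FPKM in Holstein against 4223 in Cholistani (Jersey 305), and DUSP5 127 FPKM in Holstein against 528 in Cholistani (Jersey 86.9). DUSP6, at 333, 208 and 395 FPKM, was within 2-fold. DUSP4, listed at 0 in both taurine libraries, met the rule through its 37.3 FPKM in Cholistani alone. ZFP36, which destroys cytokine messages, had 1053, 1138 and 5468 FPKM, PPP1R15A, which restarts translation after stress, 118, 122 and 1151 FPKM, and ATF3, a stress-induced factor, 23.7, 23.8 and 319 FPKM. Those within 2-fold were FOSL2 (109, 96.0 and 106 FPKM), MYC (664, 737 and 740.4 FPKM), DUSP6, KLF6 (468, 451 and 582 FPKM) and BTG1 (3409, 3607 and 5333 FPKM).

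Of 21 genes of the NF-kappaB pathway listed, 10 were matched and measured, and RELA, NFKB1, NFKB2 and NFKBIA were not among them. Of the 10 measured, 4 were higher and 0 lower (median 0.54, rescaled -0.14). The 4 higher genes stayed higher after rescaling. NFKBIZ and NFKBID, nuclear members of the inhibitor family, had log2 ratios of 3.43 and 2.95. BCL3, another of that family, had 291 FPKM in Holstein against 1279 in Cholistani (Jersey 295), and TNFAIP3, the deubiquitinase that ends the signal, 76.9, 64.0 and 269.7 FPKM. The only measured subunits, RELB and REL, and the measured kinases were within 2-fold as deposited. RELB had 184, 203 and 327 FPKM, REL 104, 84.4 and 53.1 FPKM, and the kinases CHUK and IKBKB 149, 145 and 173 FPKM and 155, 161 and 147 FPKM. CYLD, another deubiquitinase that restrains the pathway, had 234, 218 and 184 FPKM, and TRAF1, an adaptor, 107, 101 and 127 FPKM, so the regulators did not all lie on the same side. After rescaling 2 genes were lower, REL (-1.63) and CYLD (-1.02).

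Among inflammatory cytokines and prostaglandin synthesis, 6 of 14 genes were higher and 1 lower, with a median of 0.75. TNF, the tumour necrosis factor, had 131 FPKM in Holstein against 422 in Cholistani (Jersey 129.6). IL10, an anti-inflammatory cytokine, had 89.3 FPKM in Cholistani against 24.1 in Holstein and was listed at 0 in Jersey. OSM, of the interleukin-6 family, had 13.6, 14.5 and 73.0 FPKM. PTGS2, the inducible enzyme of prostaglandin synthesis, had a log2 ratio of 2.44, and IL18 one of 1.13. The gene lower in Cholistani was IL12B (17.3, 7.40 and 6.19 FPKM). IL1A, IL6 and IFNG were listed at 0 in both taurine libraries and had 86.0, 16.9 and 19.8 FPKM in Cholistani. They met the rule through Cholistani alone. Of the 17 members of this list, 3 were at 0 in Holstein, against 7.49% of all members. The median Cholistani value of all members at 0 in Holstein was 19.8 FPKM. Cytokines with another pattern were LTA (78.8, 87.5 and 84.7 FPKM), TGFB1 (1760.2, 1609.5 and 2415 FPKM) and IL1RN, the natural blocker of interleukin-1 (639.8, 560.5 and 1029.8 FPKM), all within 2-fold.

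Chemokines had the second highest median, 1.42 as deposited and 0.75 rescaled. Of 8, 5 were higher and 1, CXCL10, lower. CXCL8, which draws neutrophils, had 341 FPKM in Holstein against 1068 in Cholistani (Jersey 522). CXCL16 (351, 208 and 228 FPKM) and the platelet chemokine PPBP (821, 939 and 621 FPKM) were below Holstein by less than 2-fold as deposited and past 2-fold after rescaling. CCL2, CCL20 and both models of CCL8 were listed at 0 in Holstein and Jersey. In Cholistani, CCL2 had 13.6 FPKM, CCL20 34.4 and the stronger CCL8 model 49.4, and they met the rule through that library alone. Of the 11 members of the chemokine list, 3 were at 0 in Holstein, against 7.49% of all members.

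The members of 3 gene clusters are described next by position. Of the 15 highest named genes, GROG, REG1, CCL4 and DDN1 lie in them. These windows were chosen after the values were seen, positions are on btau4.0, and gene families that share sequence may share reads, because the alignment allowed several locations per read. The CC chemokine cluster on chromosome 19 (chr19:13740611-13977615) held 11 members, of which 10 were above 0 in both libraries, 7 were higher and 0 lower. CCL3, CCL4 and CCL5, chemokines made by activated T cells and monocytes, had 6.08-fold, 21.2-fold and 6.83-fold the Holstein FPKM, the listed span of CCL3 and CCL4 being the same. CCL5 was the most abundant of them, with 1562 FPKM in Holstein against 10663 in Cholistani (Jersey 876). REG1, the bovine chemokine regakine-1, had 13.9, 12.2 and 366 FPKM, and CCL16 427, 329 and 980.2 FPKM. A model without a name between REG1 and CCL16 was the most abundant of the window, with 11249, 10059 and 13625 FPKM, and was within 2-fold.

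Granule protease genes on chromosome 21 (chr21:34818853-34986743) differed more. This window of 168 kb runs from DDN1 to GZMB and held 6 members, of which 5 were above 0 in both libraries and all 5 were more than 4-fold higher. GZMB, the granzyme by which killer cells start apoptosis, had 42.3 FPKM in Holstein against 436 in Cholistani (Jersey 52.3). LOC508858, a model with a placeholder name, had 121 FPKM in Holstein against 7087 in Cholistani (Jersey 142). Its listed span is shared by an unnamed member (9.47, 14.8 and 771 FPKM). A merged model of GZMH and LOC786126 had 184 FPKM in Holstein against 4992 in Cholistani (Jersey 213). An unnamed model between the latter and GZMB was listed at 0 in both taurine libraries and had 1149 FPKM in Cholistani. The 6 members together summed to 14903 FPKM in Cholistani against 376 in Holstein and 440.4 in Jersey, a ratio of 39.7 to Holstein.

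In the CXC chemokine cluster on chromosome 6 (chr6:91877879-92073929), by contrast, neighbours differed in opposite directions, and the summed FPKM of its 5 members had a ratio of 0.998. GROG stood at 134-fold the Holstein FPKM. A merged model of GROB, its close relative, and another protein entry had 7171 FPKM in Cholistani and 8.16 in Jersey, and a listed value of 0 in Holstein. A6QPP9, a model known by its protein accession only, had 12328 FPKM in Holstein against 3112 in Cholistani (Jersey 12113) and was 3.96-fold lower. CXCL6 (55.0, 58.4 and 31.7 FPKM) and PPBP were within 2-fold as deposited.

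**Figure D3:**
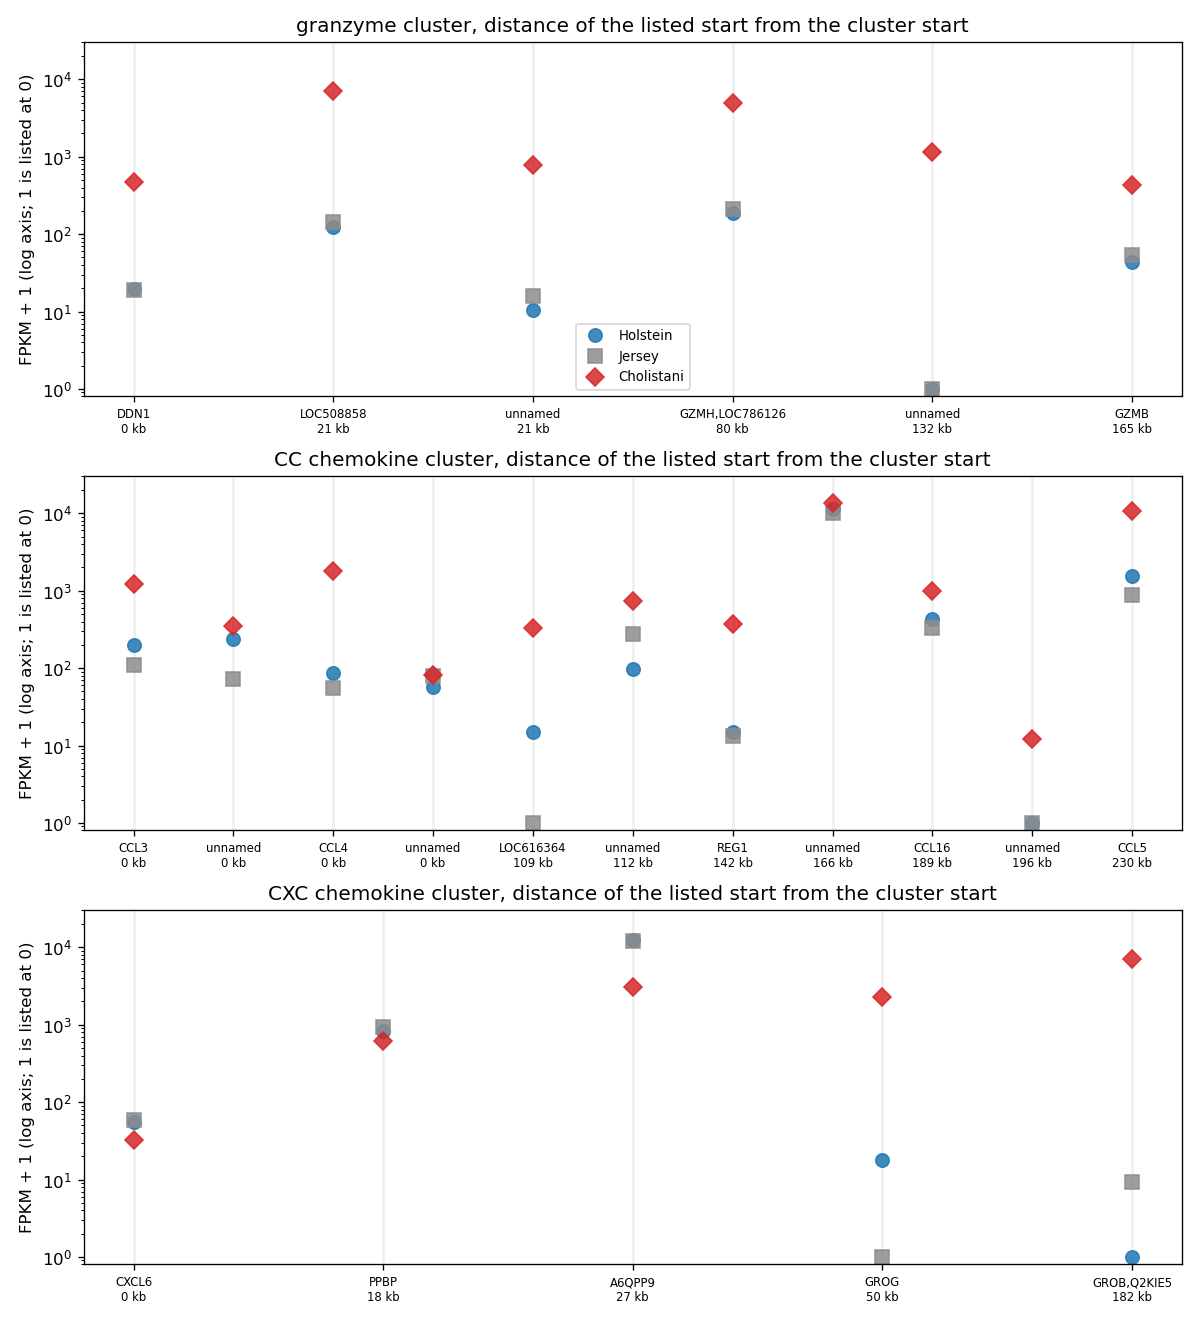
FPKM + 1 on a log axis for the members of 3 gene clusters in genome order, with the distance of each listed start from the start of the window in kb; a value of 1 is a gene listed at 0. Blue circles are Holstein, grey squares Jersey and red diamonds Cholistani. All members of the granzyme window have their highest value in Cholistani, while A6QPP9 in the CXC window has 12328 FPKM in Holstein against 3112 in Cholistani.

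Cytokine receptors had the lowest median of all lists, -0.57 as deposited and -1.25 rescaled, with 2 of 17 higher and 3 lower. IL7R, through which T cells receive survival signals, had 360.4 FPKM in Holstein against 81.4 in Cholistani (Jersey 308). TGFBR2, which senses TGF-beta, had 339.7, 289 and 127 FPKM, and IL6ST, the shared chain of the interleukin-6 family, 110.4, 96.6 and 52.8 FPKM. IL6R, the most abundant receptor of that family here, had 1268, 969.8 and 855 FPKM, lower after rescaling only (-1.25). The higher genes were CSF3R, the receptor for the neutrophil growth factor (657, 532 and 1976 FPKM), and IL2RG, the common gamma chain (2304, 2207 and 4615 FPKM), and neither was past 2-fold after rescaling.

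Chemokine receptors were divided, with 2 higher and 2 lower of 8 (median -0.30). CCR2, which leads monocytes to CCL2, had 434 FPKM in Holstein against 88.5 in Cholistani (Jersey 316). CXCR4, which holds leukocytes in the bone marrow, had 339 FPKM in Holstein against 1763 in Cholistani (Jersey 326) and was higher, as CXCR2 was. CX3CR1 (775, 516 and 634 FPKM), CCR7 (518, 549.9 and 401 FPKM), CCR6 (97.5, 110.3 and 78.1 FPKM) and CXCR3 (112, 88.6 and 100.2 FPKM) were within 2-fold. Of 14 genes of Toll-like receptors and their signalling, 1 was higher and 2 were lower (median -0.09). TLR4, the sensor of bacterial lipopolysaccharide, had 129.5 FPKM in Holstein against 312 in Cholistani (Jersey 119). TLR8, a sensor of RNA, had 222, 172 and 78.7 FPKM, and TLR10 163, 195 and 57.4 FPKM. The shared adaptor MYD88 had 855, 749 and 836 FPKM.

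Of 35 interferon-stimulated genes listed, 13 were matched and measured, and these 13 were above the median of all members. MX2 was only just so (0.20 against 0.19). The interferon-induced CXCL10, counted with the chemokines and not in this list, was lower (-2.56). The list had a median of 0.75 (0.08 rescaled), and 5 of its genes were higher and 0 lower, of which 2 stayed higher after rescaling. ISG15, a ubiquitin-like protein (chr16:48718794-48719832), had 358 FPKM in Holstein against 2652 in Cholistani (Jersey 322). IFI6 had 587 FPKM in Holstein against 2197 in Cholistani (Jersey 840.1), and XAF1, which favours apoptosis, 255, 240.2 and 789.8 FPKM. The antiviral GTPases MX1 (648, 612 and 973 FPKM) and MX2 (180.4, 181 and 207 FPKM) were within 2-fold. IRF1, a transcription factor that interferon gamma induces, had 1674 FPKM in Holstein against 4221 in Cholistani (Jersey 1464).

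Genes of MHC class I presentation had a median of 1.03, and 5 of its 10 genes were higher and 0 lower. After rescaling the median was 0.36 and 0 passed 2-fold. The higher genes were the activators and catalytic subunits of the immunoproteasome, the form of the proteasome that interferon gamma induces. PSME1 had 1970.2 FPKM in Holstein against 6273 in Cholistani (Jersey 1890.3), and PSME2 1135 FPKM in Holstein against 2967 in Cholistani (Jersey 1204). PSMB8 had 4468, 4538 and 12415 FPKM, PSMB9 2662, 2709 and 7729 FPKM and PSMB10 1577, 1821 and 4242 FPKM. The light chain B2M (82480.2, 81393 and 116169 FPKM) and the chaperones CALR (2962, 2502 and 4757 FPKM) and PDIA3 (2410.1, 2204 and 3482 FPKM) were within 2-fold. Heavy chains were not matched by symbol, but a merged model that holds one of them, HA1B (chr23:28483925-28659544), had 84948, 77462 and 328475 FPKM, and was chosen after its values were seen. Of the class II list only CIITA (528, 763 and 440.3 FPKM) and CTSS (4169, 3552 and 3407 FPKM) were matched, and both were below the Holstein value by less than 2-fold.

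The whole list of 29 genes of proteasome subunits and their chaperones had a median of 0.60. In it 4 were higher, a share near the 14.1% of all members, and 0 lower. Of those, PSMB8, PSMB9 and PSMB10 belong to the immunoproteasome. PSMB5, the constitutive subunit that PSMB8 replaces, had 207, 179 and 205 FPKM.

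Cell type markers were used to describe the mixture of cells. Of 24 T cell, 20 B cell, 21 cytotoxic, 20 monocyte and 29 neutrophil markers listed, 12, 14, 8, 9 and 13 were matched by symbol and measured, so these lists are incomplete, and CD2, CD4, MS4A1 and PRF1 were not among them. In bulk RNA, fewer cells of a type and less RNA per cell cannot be told apart. Among monocyte markers 0 of 9 were higher and 0 lower (median 0.16), and their summed level was 10248 FPKM in Holstein and 15139.6 in Cholistani. CD14, the coreceptor of lipopolysaccharide, had 342, 237 and 398 FPKM, and FCGR3A 1608, 850.3 and 1686 FPKM.

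T cell markers had a median of 0.59 (-0.08 rescaled), with 2 of 12 higher, against 14.1% of all members, and 1, IL7R, lower. CD8A, which marks cytotoxic T cells, had 255 FPKM in Holstein against 866 in Cholistani (Jersey 236), and CD3E, of the T cell receptor complex, 2041 FPKM in Holstein against 6016 in Cholistani (Jersey 2127). The other CD3 chains, CD3D (943, 891 and 1444 FPKM) and CD3G (1016, 1072 and 1279.9 FPKM), were within 2-fold. B cell markers had a median of 0.35, with 1 of 14, CD79A, higher (5281, 6189.5 and 14273 FPKM) and 1, PAX5, lower (296, 381 and 145 FPKM). CD79A is part of the B cell receptor, and PAX5 is the transcription factor that fixes B cell identity. CD22, an inhibitory receptor of B cells, had 998, 1416 and 1058 FPKM.

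Markers of natural killer and cytotoxic cells had a median of 1.17 (0.50 rescaled), with 5 of 8 higher and 0 lower. NKG7, a granule membrane protein, had 275 FPKM in Holstein against 1386 in Cholistani (Jersey 219). GZMM (94.5, 46.9 and 461 FPKM) was higher as well, but shares the span of PRSSL1. NCR1, an activating receptor of natural killer cells, had 699.7, 502 and 1594 FPKM, and KLRD1 72.7, 62.2 and 164 FPKM. The span of NCR1 is listed for 7 models. TBX21, the transcription factor of these cells, had 489, 451 and 647 FPKM, within 2-fold. CD226, an activating receptor, had 135, 94.3 and 72.2 FPKM, below the Holstein value, and was lower after rescaling (-1.57).

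Of 13 neutrophil markers, 3 were higher and 0 lower (median 0.73). The higher ones were CXCR2, CSF3R and NCF1, a subunit of the oxidase that kills microbes (415, 396 and 2092 FPKM). The most abundant ones, the calcium-binding proteins S100A12 (17413, 12184 and 13418 FPKM) and S100A8 (11065, 9500.3 and 7767 FPKM), were below the Holstein value, within 2-fold as deposited and lower after rescaling. The summed level of the neutrophil list was 45076 FPKM in Holstein and 47201 in Cholistani, so that its share of the library sum was 0.758% and 0.496%. The part of this mixture in the immune gene differences above was not tested.

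Platelet markers were lower on balance, with a median of -0.40 (-1.08 rescaled). Of 13, 5 were lower and 3 higher. Their summed level was 4654 FPKM in Cholistani against 11900.5 in Holstein and 8967 in Jersey. F13A1, the clotting factor XIII subunit, had 4417 FPKM in Holstein against 1775 in Cholistani (Jersey 3118). F13A1, TUBB1 (4430.1 FPKM in Holstein, 551 in Cholistani) and CLU (941 and 118) held most of the Holstein sum. As deposited, the fall of the sum lay mostly in these genes, and TUBB1 lies on a shared span. The rest of the list held genes below the Holstein value, such as PPBP (821 FPKM in Holstein, 621 in Cholistani). It also held genes above it, such as TBXA2R (537 and 777). After rescaling, 7 of the 13 markers were lower and 1 was higher, so the balance of the rest depended on the scale. SELP, the adhesion molecule of platelet granules, had 126, 80.7 and 43.7 FPKM, and TREML1 155, 80.8 and 45.5 FPKM. The higher genes were GP9 (84.5, 104 and 190.0 FPKM), of the von Willebrand factor receptor, CLEC1B (21.9, 23.4 and 47.2 FPKM), a receptor of platelet activation, and ALOX12, a lipoxygenase, with a log2 ratio of 1.86.

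Red cell markers were mixed, with 3 of 12 higher and 2 lower. Beside ALAS2, CPOX, a later enzyme of heme synthesis, was lower (143, 101 and 57.6 FPKM). ALAD, the enzyme after ALAS2 in the pathway, had 57.5, 87.4 and 165 FPKM, and was higher. A merged model of beta globins had 12696 FPKM in Holstein against 6952 in Cholistani (Jersey 8495). The matched alpha globin model had 69.3 FPKM in Cholistani and 11.5 in Jersey, and a listed value of 0 in Holstein.

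The energy-producing complexes of the mitochondrion had medians above that of all members as deposited. After rescaling their medians were near 0, still above that of all members (-0.48). Most of their genes were in the highest quartile of mean FPKM over Holstein and Cholistani. These were 28 of 32 for complex I, 12 of 16 for cytochrome c oxidase and 16 of 17 for ATP synthase. All models of that quartile had a median of 0.51 (-0.17 rescaled), and 21.4% of them were higher. The part of level in the list medians was not tested. Complex I, which takes electrons from NADH, had a median of 0.87 over 32 subunits, 15 higher and 1 lower. After rescaling the median was 0.19, with 0 higher and 2 lower. NDUFB2 had 429 FPKM in Holstein against 1243 in Cholistani (Jersey 388), and NDUFA9 265 FPKM in Holstein against 755 in Cholistani (Jersey 274). NDUFC1, at 130.1, 160.1 and 56.7 FPKM, was the lower one. Genes of complexes II and III, with cytochrome c, had a median of 0.76 (0.08 rescaled) and 4 of 11 higher.

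Cytochrome c oxidase was the least uniform of the complexes. Its list holds assembly factors (SURF1, SCO1, COX11 and COX19) beside subunits. Of its 16 genes, 7 were higher and 2 lower. COX4I1 was the lowest, with a log2 ratio of -2.74, and COX7A1 the highest, with 110.0, 142 and 412 FPKM. COX5B had 1571, 1564 and 4876 FPKM, COX8A 2576, 2569.6 and 5451 FPKM and COX6C 1111, 1560.0 and 542 FPKM. Genes of ATP synthase and its regulators had a median of 0.58 and 3 of 17 higher, against 14.1% of all members. ATP5J (1107, 1106 and 2772 FPKM) was among the higher ones. ATP5E was counted through a model on chromosome 22 (1153, 1073 and 1515 FPKM). The merged ATP5E model on the TUBB1 span (4305, 3729.8 and 446 FPKM) was lower and is not in this list. Of 8 genes of the mitochondrial genome, 1, ND3, was higher (71009, 71815 and 162084 FPKM), and COX1 had 79333, 88848 and 129900 FPKM.

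Mitochondrial ribosomal proteins had a median of 0.71, with 17 of 67 higher and 1 lower, and 3 higher after rescaling (median 0.04). MRPL40 had 240.1, 255 and 951 FPKM and MRPS25 231, 229 and 898 FPKM. Cytosolic ribosomal proteins held 14.2% of the Holstein sum and 15.0% of the Cholistani sum. Their median was 0.59 (-0.09 rescaled), and 15 of 73 were higher and 3 lower. Of the 73, 72 were in the highest quartile of mean FPKM, where the median of all models was 0.51. RPL23A had 2163 FPKM in Holstein against 12158 in Cholistani (Jersey 2098), and RPS26 2520.5 FPKM in Holstein against 851 in Cholistani (Jersey 1842). Ribosomal protein genes have many processed copies in the genome that can share their reads, so the values of single members are uncertain.

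Translation factors had a median of 0.55, with 4 of 31 higher, a share near the 14.1% of all members. Of these factors 1, EIF4E, was lower (589, 526 and 270.1 FPKM). EIF4E binds the cap of messenger RNA. Proteins of mitochondrial import had a median of 0.74 (4 of 16 higher), and those of the spliceosome 0.61 (9 of 31 higher). In each of these 3 lists 0 genes were higher after rescaling. Heat shock proteins and chaperonins had a median of 0.41 and 3 of 47 higher and 1 lower. HSPA8, a constitutive chaperone, had 4485, 4429.9 and 7083 FPKM.

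Genes of DNA replication and mitosis had a median of 0.98, the fifth highest of the lists, and 0.31 after rescaling. Of 20, 9 were higher and 0 lower, and 1 passed 2-fold after rescaling. That gene, UBE2C, which helps end mitosis, had 106 FPKM in Holstein against 357 in Cholistani (Jersey 86.5). PCNA, the replication clamp, had 364, 360.2 and 829 FPKM, and PLK1, a mitotic kinase, 79.0, 69.8 and 216 FPKM. MCM6 (212, 160.0 and 236 FPKM), part of the replication helicase, was within 2-fold.

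Metabolic enzymes were less uniform. Of 13 genes of glycolysis and glucose uptake, 4 were higher and 0 lower (median 0.55), with SLC2A3, a glucose transporter, at 732, 665 and 1602 FPKM and PFKFB3 at 409, 404 and 274 FPKM. Genes of antioxidant defence had a median of 0.38, with 3 of 18 higher and 1, SRXN1, lower. SOD1, the cytosolic superoxide dismutase, had 524, 653 and 1108 FPKM. In the lipid list, CPT1A, which brings fatty acids into mitochondria, had 386 FPKM in Holstein against 137 in Cholistani (Jersey 166), and PLIN2, the coat of lipid droplets, 269.6, 262 and 222 FPKM. The higher genes of that list were DGAT2 and FABP5, a fatty acid carrier, with a log2 ratio of 1.10.

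Zinc finger genes, many of them regulators of transcription, differed from most lists in having more lower than higher members. Of 152, 39 were lower and 13 higher, with a median of -0.39 (-1.04 rescaled). Among all members 8.58% were lower and 14.1% higher. Of the 161 zinc finger members, another 8 were listed at 0 in Cholistani, near the 4.7% of all members. Only 1 was listed at 0 in Holstein, against 7.49% of all members. ZFP36, described above, was the highest, followed by ZNF524 (79.3, 86.7 and 289 FPKM) and ZNF683 (81.8, 100.1 and 267 FPKM), a factor of resident memory T cells. Solute carriers had 10 of 93 higher and 18 lower (median 0.11). SLC25A33, a mitochondrial pyrimidine carrier, had 42.3, 49.1 and 266 FPKM. Of 28 RAB GTPases of vesicle traffic, 1, RAB4B, was higher (616, 1112 and 2305 FPKM) and 1, RAB27B, lower (157, 127 and 69.2 FPKM). The span of RAB4B is listed for 5 models, so reads may have been divided among them. Integrins had a median of -0.22, and the leukocyte beta chain ITGB2 had 3143, 2698 and 3525 FPKM.

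The lists left to describe had medians between 0.11 and 0.54. Of 6 genes often used as references for RT-PCR, 2, UBB and RPLP0, were higher and 0 lower. GAPDH, an enzyme of glycolysis, had 1034, 1119.8 and 1509.9 FPKM, and YWHAZ, a signalling adaptor, 323, 286 and 182 FPKM. S100 calcium-binding proteins had 1 of 9 higher, vacuolar ATPase genes 3 of 17 and RNA polymerase II subunits 1 of 7, with 0 lower in each. These shares were not far from the 14.1% of all members that were higher. Of 9 regulators of actin branching, 0 were higher and 0 lower. The eosinophil and basophil list had 1 measured member, which was higher as deposited and within 2-fold after rescaling.

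Across 42 lists with at least 3 measured genes, without the RT-PCR genes, 36 medians were above 0 as deposited and 12 after rescaling. The signs of 24 list medians therefore depended on the scale. Centred on the median of all members, 31 list medians were above 0, and 5 had another sign than as deposited. Those above 0 on both scales included immediate early genes, chemokines, cytotoxic markers, MHC class I presentation, mitotic genes and complex I.

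**Figure D4:**
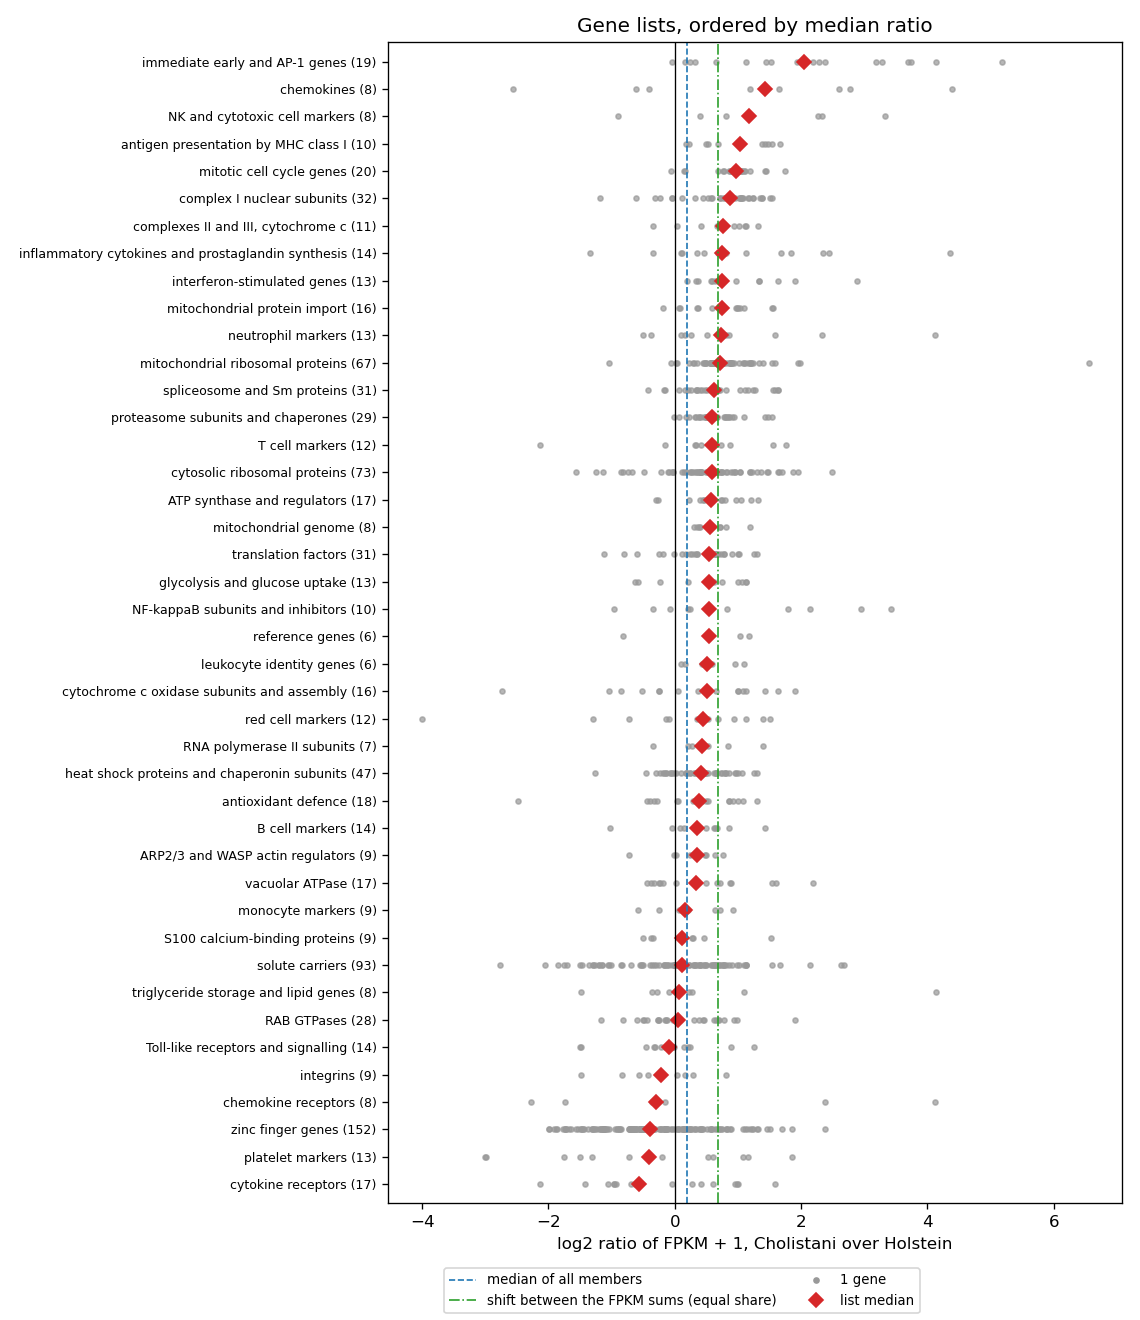
Log2 ratio of FPKM + 1, Cholistani over Holstein, for 42 gene lists ordered by their median, with the number of genes in parentheses. Grey points are genes, red diamonds list medians, the blue dashed line the median of all members (0.19) and the green line the shift between the FPKM sums (0.68), so that diamonds to the right of the green line stay above 0 after rescaling. Immediate early genes are at the top (2.05) and cytokine receptors at the bottom (-0.57).

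The ratio also moved with the level of a model and with the length of its listed span on the genome. From the lowest to the highest quartile of mean FPKM, the median log2 ratio was -0.15, 0.04, 0.22 and 0.51. The mean was taken over Holstein and Cholistani, whose values also form the ratio, so these quartiles are not independent of it. Quartiles by the Holstein or the Jersey value alone were not made. From the shortest to the longest quartile of spans, for models that share their span with no other, it was 0.33, 0.41, 0.08 and -0.16. Within the highest quartile of FPKM the medians by span were 0.69, 0.61, 0.32 and 0.12, so the gradient with span was also present within that quartile. Of the 62 ribosomal protein genes with a span of their own, 46 were in the shortest quartile, as were 11 of 19 immediate early genes. The part of span and level in the list medians was not tested. By chromosome, medians ran from -0.07 on chromosome 1 (471 models) to 0.51 on chromosome 25 (437 models), with 0.46 on chromosome 29, 0.40 on chromosome 18 and 0.38 on chromosome 23, which holds the MHC.

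**Figure D5:**
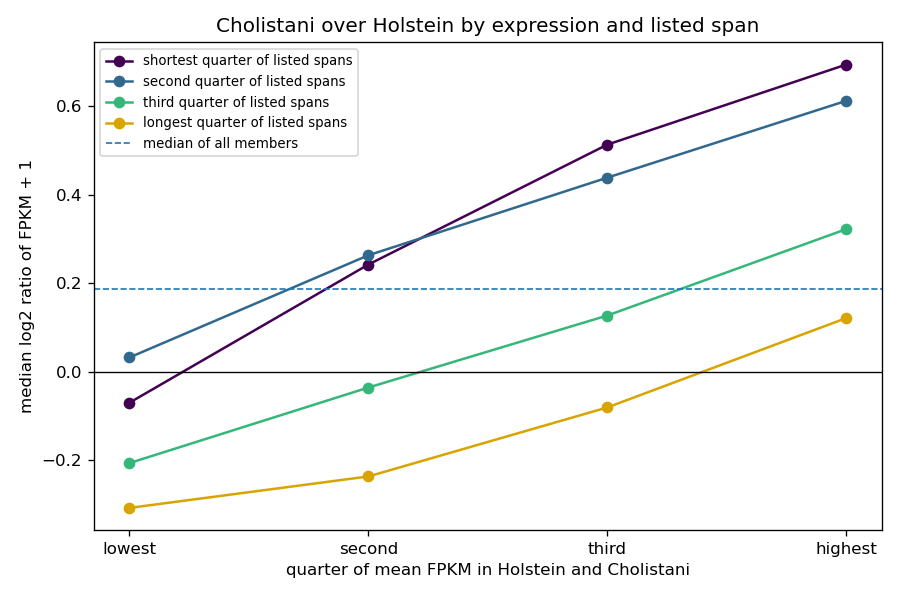
Median log2 ratio of FPKM + 1, Cholistani over Holstein, on the y axis, by quartile of mean FPKM on the x axis. Each line is a quartile of listed spans, from the shortest (purple) to the longest (yellow), and the dashed line is the median of all members. All lines climb from left to right, and the longest spans run lowest, from -0.31 to 0.12. The mean FPKM holds the same Holstein and Cholistani values as the ratio, so the axes are not independent.

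Members listed at 0 in 1 library have no ratio. There were 1013 such models at 0 in Holstein (7.49% of members) and 636 at 0 in Cholistani (4.7%). Most were weak: their median in the other library was 19.8 FPKM and 20.6 FPKM. Of those at 0 in Holstein, 842 had no name, and 778 were also at 0 in Jersey. Of those at 0 in Cholistani, 498 had no name, and 241 were also at 0 in Jersey. Among named genes listed at 0 in Holstein, the highest was KRT17, a keratin of skin and other epithelia, with 411 FPKM in Cholistani. It was followed by THEG (135 FPKM), which lies on the span that PRSSL1 and GZMM share with other models, SNAI1, a repressor of epithelial genes (119.8, with 9.48 in Jersey), S100A5 (109.6) and HBEGF, a growth factor of the EGF family (109). Of 24 epithelial markers listed, 7 were matched and 3 met the rule, each through its Cholistani value alone. They were KRT17, CLDN3 (0, 11.5 and 32.6 FPKM) and SFN (0, 0 and 12.4 FPKM). The other matched markers did not meet the rule, so the list says little about epithelial genes in general. No member with a gene name and 100 FPKM or more was listed at 0 in Cholistani.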

How the data were processed

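Leukocyte messenger RNA was measured in 3 libraries, 1 per breed, each from blood pooled over cows (40 Holstein, 45 Cholistani and 7 Jersey). The authors aligned paired reads to btau4.0 with TopHat 1.0.14 and Bowtie 0.12.7 and computed FPKM with Cufflinks 0.9.3 (versions per the submitters' processing notes), and the deposited FPKM values were upper-quartile normalized and bias corrected. Reads that mapped to several locations were kept, so members of gene families with like sequence are uncertain. The table gives no read counts, so the depth behind a value is unknown here, and neither counting intervals nor floors were computed. Listed starts count from 0, and 1 was added.

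From these values the log2 ratio of FPKM + 1 was computed with python 3.11.15, pandas 2.3.3 and numpy 2.4.6, and figures with matplotlib 3.10.9. The code was checked on simulated data. Members needed 10 FPKM in either library, and 5 models without a Holstein value were left out. No test was run.

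The members and the 46 gene lists were chosen with earlier results of these data known. Of 678 genes spelled out in lists, 396 were matched by symbol, and other lists took all symbols of a family. Genes were named by a rule: a symbol of their own and a minimum of 100 FPKM in whichever library was higher, then the 15 highest and 15 lowest ratios, the 8 most abundant per library, the 5 most abundant at 0 in either library, and per list the 3 highest, 2 lowest and 2 most abundant. The RT-PCR genes are given as a list. A few genes that the rule or the lists held are not reported here by name. Any other gene or model named, such as those below 100 FPKM, merged or unnamed models and the gene clusters, was chosen after its values were seen. A planned split by protein length was not run, and the listed span was used in its place. Alternatives were other scalings, pseudocounts of 0.1 and 10, another minimum, named models only, Jersey in place of Holstein and, added after seeing the data, models with a span of their own.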

Additional observations from a re-analysis of the deposited data

How the results depend on the processing

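No paired analysis was possible because each breed had 1 pooled library, and for the same reason no replicate could be left out. The median log2 ratio of all members went from 0.19 as deposited to -0.48 after rescaling to equal sums and to -0.28 after rescaling without the 100 most abundant models of each library, so its sign depends on the scale. Models at least 2-fold higher and lower numbered 1673 and 1019 as deposited, 462 and 3028 rescaled, 670 and 2238 rescaled without those 100, and 1164 and 1391 centred on the median of members, where 45.6% of the models past 2-fold were higher. Fewer models entered with gene names only (872 and 515) and with a minimum of 50 FPKM (595 lower), and more with models listed at 0 in 1 library counted (2686 and 1655). A pseudocount of 10 left 628 lower. With Jersey in place of Holstein there were 1473 and 917. A limit to models whose listed span is shared with no other, chosen after seeing the data, gave 1236 and 792. Of the 137 named genes past 2-fold, 77 were still past it in the first rescaling and 95 in the second, while their signs could not turn, since both shifts are smaller than 2-fold. Of 42 list medians, 24 changed sign in the first rescaling, 12 in the second and 5 when centred on the median of members. The depth of each gene is unknown, and no setting can stand in for replicate libraries.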

Other observations

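Small RNA genes were among the members, although the libraries were made from polyadenylated RNA. These models are short, and several are copies of each other, so their values are uncertain. The 13 models named U1, the RNA that recognizes the start of introns, summed to 7993 FPKM in Cholistani against 722 in Holstein and 1901 in Jersey, and 9 of the 10 above 0 in both libraries were higher in Cholistani. The 11 models named U3, which guides the processing of ribosomal RNA, summed to 4941 FPKM in Cholistani against 6964 in Holstein and 71988 in Jersey. For U3 the Jersey library stood apart from the other 2, and for U1 the Cholistani library did. Of 22 models of H/ACA small nucleolar RNAs, 8 were above 0 in both libraries, of which 4 were lower in Cholistani and 0 higher.

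The most abundant models above 0 in Cholistani and listed at 0 in both taurine libraries had no name and very short spans, led by a model at chr4:124453612-124453694 with 10561 FPKM. In the other direction, a model without a name at chr18:40406332-40406409 had 1847 FPKM in Holstein and was listed at 0 in Jersey and in Cholistani. LOC783372, a model with a placeholder name (chrX:48460822-48461696), had 367 FPKM in Holstein against 6260.4 in Cholistani (Jersey 365). Models of this section were chosen after their values were seen.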
